A study of Mus musculus with 18 samples.

Results

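The comparison described here set the most mature cells of an estradiol time course, at 30 h, against untreated cells of the same line, at 0 h. It used 6 of the 18 arrays of the series, 3 at each of these times. The arrays were chosen by the time and the replicate letter (A, B or C) in their labels, and the other 12 arrays (3, 7, 14 and 21 h) served to estimate the spread between replicates, apart from the 21 h values given beside some genes. The cells were G1E-ER4, 1 subclone of a mouse erythroid line that came from embryonic stem cells in which Gata1 had been disrupted. All groups, the 0 h group included, carry the disrupted Gata1 and the fusion protein Gata-1-ER, in which an estrogen receptor domain makes Gata-1 depend on the hormone. By their labels the groups differ in estradiol, which was absent at 0 h and had been present for 30 h in the other group. The labels call the replicates biological and place the course between the late BFU-E stage, an early erythroid progenitor, and the orthochromatic erythroblast, the last stage with a nucleus. Estradiol-treated cells without the fusion and untreated cells kept for 30 h were not analysed here, so the activity of the fusion, the hormone itself and the time in culture cannot be told apart.

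Gata-1 is a zinc finger transcription factor that binds GATA words in DNA and is needed for red cell precursors to survive and mature. Gata-2 fills many of the same sites in early progenitors and gives way to Gata-1 as maturation starts. Maturing erythroblasts fill with hemoglobin, leave the cell cycle, shrink and condense their nucleus, and later lose the nucleus, the mitochondria and the ribosomes.

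Each sample's total RNA was read on 1 Affymetrix chip of the MG-U74Av2 design, on which several short DNA probes together, a probe set, stand for a transcript. Signals below are the deposited intensities in arbitrary units, in the order of replicates A, B and C. Changes are differences between 30 h and 0 h of log2(signal + 16) after quantile normalization, with the standard error (SE) and the Benjamini-Hochberg adjusted p of limma. A gene was called when its adjusted p was below 0.05, and was represented by its brightest probe set. The constant of 16 makes the change of dim genes smaller than the ratio of their signals. Signals of different genes cannot be compared, because probes differ in brightness.

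Of 12422 probe sets 26.7% were called, and of 8251 genes 31.2%, with 14.7% (1215) higher and 16.5% (1358) lower at 30 h. These shares of genes are the background for the counts of calls in lists below. At least 2-fold changes were called higher in 7.36% of genes and lower in 10.4%. A change of at least 4-fold was met by 144 genes called higher and 244 called lower, and a change of at least 16-fold by 11 and 11. The calls rested on signal. With the probe sets split by mean signal into 3 equal bins, 3.50% were called in the dimmest bin, 19.0% in the middle bin and 57.5% in the brightest. The log2 signals of arrays of the same time correlated with r between 0.959 and 0.971, and those of different times with r between 0.870 and 0.886. For 42% of all genes the arrays of 0 h and of 30 h did not overlap, which is the background for every statement below that arrays did not overlap. Each array averaged the RNA of a whole culture, so fewer cells of a type and less RNA per cell cannot be told apart. All arrays were also brought to 1 common level, so a change in total RNA per cell cannot be seen. Rises and falls below are relative to the other transcripts on the array. The ratio of 3′ to 5′ signal of the b-actin control, a sign of RNA breakdown, was 1.19 to 2.04 at 0 h and 1.07 to 1.73 at 30 h, and that of Gapdh 0.921 to 1.04 and 0.961 to 1.27.

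**Figure D1:**
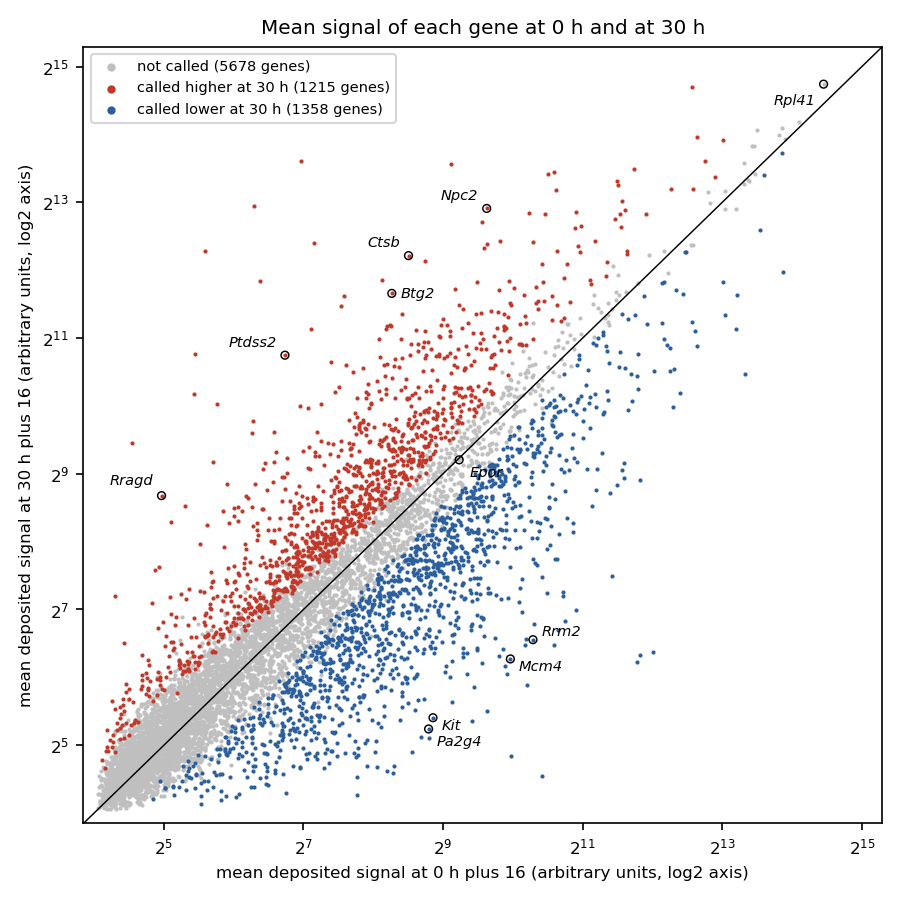
Mean deposited signal plus 16 of each of 8251 genes at 0 h (horizontal axis) and at 30 h (vertical axis), both on log2 axes in arbitrary units, with the line of equal signal. The 1215 red genes were called higher and the 1358 blue genes lower at 30 h, grey genes were not called, and the circled genes are described in the text.

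The labelled cell type was checked against erythroid markers. The adult alpha globin Hba-a1 had signals of 7034, 5307 and 5842 at 0 h and 26647, 21954 and 31044 at 30 h, so the untreated cells already held globin mRNA. Klf1, an erythroid transcription factor, had 1283, 1384 and 1240.5 at 0 h and 2995, 2682 and 2568 at 30 h. The receptor for erythropoietin, Epor, had 583, 569 and 602 at 0 h and 561, 582 and 579 at 30 h, and its change of 0.02 had a 95% interval of -0.22 to 0.25. Epb42, a red cell membrane protein, had signals of 11.1 to 34.1 on all 6 arrays and no call, and among the other red cell membrane genes, given below, Rhag was called lower and Tfrc was not called. Lists for other cell types were summed on each array. The summed signal of 14 megakaryocyte markers was 481 to 524 at 0 h and 414 to 570.4 at 30 h, that of 17 mast cell and basophil markers 360.1 to 405 and 315 to 394, and that of 28 neutrophil and macrophage markers 1295 to 1631 and 1343 to 1719.5. The 20 lymphocyte markers summed to 605 to 663 and 585 to 954, the 20 fibroblast and stromal markers to 1079.6 to 1162 and 1302 to 1697, and the 13 pluripotent stem cell markers to 1213 to 1321 and 1172 to 1413. Only the stromal sums did not overlap between the times. A sum follows its brightest members, such as Dppa4 among the stem cell markers, with a mean of 885 at 0 h. In the order of the lists, the members called higher were 1, 1, 4, 2, 1 and 1. Those called lower were 0, 2, 2, 0, 0 and 1. The shares were at most 14.3% and 11.8%, against 14.7% and 16.5% of all genes. In the mast cell list Cma1 was called higher, and Mcpt1 and Cpa3 lower. Of the 14 megakaryocyte markers 10 stayed below a signal of 50 on all 6 arrays, among them the receptor subunits Gp1bb, Gp9 and Itgb3. Tbxas1 and F2r did not, with means of 130 and 103 at 0 h and 144 and 78.7 at 30 h. Cxcr2 was called higher (adjusted p = 0.0458), and Gp9 had means of 118 at 14 h and 99.3 at 21 h. No member of the lists for other cell types was at 0 on all 6 arrays. The part of other cells in the results below was not tested.

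The largest rises beyond heme, globin and membrane genes formed a mixed group. Ptdss2, an enzyme that makes phosphatidylserine, went from 105, 81.5 and 84.5 to 1836, 1821 and 1448 (log2 change 3.93 ± 0.12 (SE), adjusted p = 5.64e-14). Gstt2, a glutathione transferase, went from 215, 159 and 134 to 3075, 3009.6 and 2382, and Rragd, a Rag GTPase that signals amino acid supply to mTORC1 on the lysosome, from 14.5, 9.4 and 21.9 to 391, 359 and 430. The 30 largest rises were picked from called genes whose arrays did not overlap, so the missing overlap was set by the choice. Ypel3, a small protein linked to growth arrest, rose from 311, 227 and 250.1 to 3698, 3973 and 3407, and Grina, a membrane protein of the Bax inhibitor family, from 398, 404 and 439 to 4329, 4955 and 4113 (log2 change 3.30 ± 0.12 (SE), adjusted p = 4.76e-13). Sun2, which ties the inner nuclear membrane to the cytoskeleton, rose from 180.3, 152 and 125 to 1529, 1666 and 1588. Atp1b2, a beta subunit of the sodium pump, rose from 85.5, 47.7 and 50.1 to 729, 754 and 788. For these genes too the missing overlap was a condition of the choice. The other large rises included Dnajb2, a co-chaperone that binds ubiquitin chains (log2 change 3.51 ± 0.17 (SE), adjusted p = 1.48e-11), St3gal2, a sialyltransferase of the Golgi (log2 change 3.22 ± 0.30 (SE), adjusted p = 9.00e-08), Tent5c, a poly(A) polymerase (log2 change 3.07 ± 0.35 (SE), adjusted p = 1.16e-06), and Dnase1l1, a relative of DNase I (log2 change 2.98 ± 0.27 (SE), adjusted p = 6.76e-08). The uncharacterized gene 1810058I24Rik rose by 3.08 ± 0.15 (adjusted p = 1.41e-11). Adjusted p of the genes named without a test in this paragraph was between 2.86e-12 (Gstt2) and 7.80e-08 (Atp1b2).

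**Figure D2:**
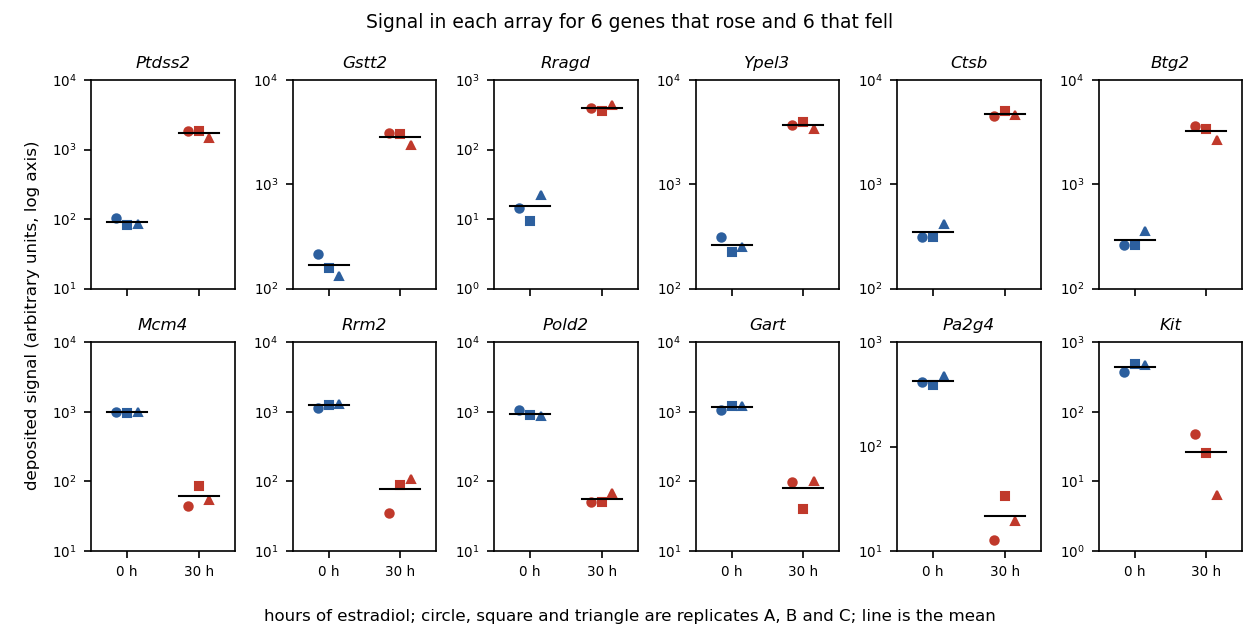
Deposited signal (vertical axes, log scale, arbitrary units) of 6 genes that rose and 6 that fell, in the 3 arrays of 0 h (blue) and of 30 h (red), with circles, squares and triangles for replicates A, B and C and a line at the mean. In every panel the 3 red points lie beyond all 3 blue points. For the 30 largest rises and 30 largest falls this was a condition of the choice. The 30 h points of Kit run from 6.3 to 47.6.

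Promoter sequence was read for the genes of the largest changes, because the fusion binds GATA words and because many falling genes are known E2F targets. RefSeq windows of the 250 bases before a transcription start (build GRCm38.p6) were found for 6572 of the 8251 genes, with 8408 windows in all. The GATA words searched were AGATAA and TGATAA and the E2F words TTCCCGC and TTGGCGC, each on both strands, and a window counted once however many words it held. The GATA words differ in their first letter. The windows of Alas2, the first enzyme of heme synthesis in red cells (chrX:150547167-150547416 on the plus strand), of Csf2rb2, a beta chain of cytokine receptors (chr15:78305722-78305971 on the minus strand), of Ptdss2 (chr7:141131036-141131285 on the plus strand) and of Hbb-y, the embryonic beta-like globin (chr7:103853208-103853457 on the minus strand), are shown because they belong to 4 of the 30 largest rises and held a GATA word. They were the first such windows met in order of size, with chromosomes 8 and 18 passed over, so other large rises may hold a word. They are printed 5′ to 3′ on the strand of the gene, with the word in capitals.
Alas2: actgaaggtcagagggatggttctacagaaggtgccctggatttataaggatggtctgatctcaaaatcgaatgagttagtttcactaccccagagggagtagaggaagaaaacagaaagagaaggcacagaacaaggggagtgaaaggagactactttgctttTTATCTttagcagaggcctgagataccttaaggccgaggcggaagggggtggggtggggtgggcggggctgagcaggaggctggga
Csf2rb2: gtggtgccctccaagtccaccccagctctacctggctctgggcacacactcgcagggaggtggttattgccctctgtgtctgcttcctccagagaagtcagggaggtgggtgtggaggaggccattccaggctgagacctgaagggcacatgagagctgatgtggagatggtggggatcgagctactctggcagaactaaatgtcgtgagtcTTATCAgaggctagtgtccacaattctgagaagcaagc
Ptdss2: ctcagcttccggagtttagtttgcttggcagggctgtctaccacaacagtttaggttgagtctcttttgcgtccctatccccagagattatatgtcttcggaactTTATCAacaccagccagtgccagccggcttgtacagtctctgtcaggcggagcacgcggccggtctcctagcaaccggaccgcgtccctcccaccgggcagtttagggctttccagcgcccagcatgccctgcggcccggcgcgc
Hbb-y: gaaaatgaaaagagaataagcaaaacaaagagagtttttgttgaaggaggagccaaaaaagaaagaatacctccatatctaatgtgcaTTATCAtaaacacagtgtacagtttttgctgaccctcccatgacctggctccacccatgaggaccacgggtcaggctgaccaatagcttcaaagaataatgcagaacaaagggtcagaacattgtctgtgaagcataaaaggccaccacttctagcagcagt
In all 4 the word lies on the opposite strand and so reads TTATCT or TTATCA, and it starts 86, 38, 145 and 162 bases before the transcription start in that order. For comparison, 3 of the largest falls with an E2F word are shown, again the first met and not all that may hold a word. They are Cdca7, a partner of chromatin remodelling (chr2:72475969-72476218 on the plus strand), and Uhrf1, which guides DNA methylation after replication (chr17:56303087-56303336 on the plus strand). The last is Cdk1, the kinase that starts mitosis (chr10:69352913-69353162 on the minus strand).
Cdca7: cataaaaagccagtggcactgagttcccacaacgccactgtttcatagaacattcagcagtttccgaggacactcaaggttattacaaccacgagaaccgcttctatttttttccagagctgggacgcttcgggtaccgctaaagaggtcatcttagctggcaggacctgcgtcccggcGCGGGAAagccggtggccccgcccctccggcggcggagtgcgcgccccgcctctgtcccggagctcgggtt
Uhrf1: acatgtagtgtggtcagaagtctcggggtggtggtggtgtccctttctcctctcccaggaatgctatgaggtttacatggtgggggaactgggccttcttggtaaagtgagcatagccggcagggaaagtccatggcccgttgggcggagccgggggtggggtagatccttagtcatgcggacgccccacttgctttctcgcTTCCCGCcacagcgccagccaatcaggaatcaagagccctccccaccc
Cdk1: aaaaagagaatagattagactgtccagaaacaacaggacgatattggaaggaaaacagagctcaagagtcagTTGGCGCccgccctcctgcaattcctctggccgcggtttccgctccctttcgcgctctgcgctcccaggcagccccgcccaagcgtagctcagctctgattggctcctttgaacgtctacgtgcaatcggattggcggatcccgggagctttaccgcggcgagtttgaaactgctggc
The words start 71, 48 and 178 bases before the start. A GATA word was present in 15.3% of the windows of genes called higher by at least 4-fold (23 of 150), in 6.95% of those called lower by at least 4-fold (18 of 259), in 10.8% of all windows of tested genes and in 16.6% of all 32851 RefSeq windows. Over all genes called higher, whatever the size of the change, the share was 9.54%, below that of all tested genes. An E2F word was present in 15.4% of windows of genes called lower by at least 4-fold, in 8% of those higher by at least 4-fold, in 8.93% of tested windows and in 5.62% of all RefSeq windows. The E-box CACGTG was present in 13.1% of windows of all genes called higher, in 9.03% of those called lower and in 8.22% of tested windows. Base composition differed little between the called groups. The median GC content was 60% for genes called higher, 60.4% for genes called lower and 58% for genes not called. For changes of at least 4-fold it was 59.8% for genes called higher and 60.4% for genes called lower. The pair CG had a median count per window of 16 for genes called higher and 17 for genes called lower. It was 12 for genes not called and 14 for all tested genes. For changes of at least 4-fold it was 15 for genes called higher and 17 for genes called lower. Both E2F words and CACGTG hold this pair. The part of base composition in these shares was not tested. A match is a description of these letters and not of binding.

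The hemoglobin genes rose. All 5 measured globins were called higher, with a median change of 2.52 against 0.05 over all genes, and limma gave 0 lower calls (0 at an unadjusted p below 0.05). The adult beta globin Hbb-b2 had 1747, 1399 and 1159.6 at 0 h and 11958, 9989.7 and 10763 at 30 h. The embryonic globins also rose, Hba-x from 33.6, 26.1 and 30.1 to 208, 221 and 269.6 and Hbb-bh1 from 72, 31.1 and 126 to 224, 216 and 285. Hbb-y, read by a probe set that may also bind related globins, went from 12.2, 30.1 and 28 to 301, 427 and 323, and no 30 h array overlapped a 0 h array in any of these genes. Among 11 heme synthesis genes 10 were called higher and 0 lower (0 at an unadjusted p below 0.05), with a median of 1.74. Alas2 had 124, 107 and 93.9 at 0 h and 11810.3, 12316 and 13301 at 30 h, read by a probe set that may take related transcripts. Probe sets of this kind, which may bind several transcripts or break a design rule of the chip, are called uncertain below. The mitochondrial carriers of the pathway rose as well, Tmem14c from 1669, 1512 and 1479.7 to 9092, 9422 and 9173, Slc25a39 from 633, 674 and 882 to 2585, 2670.5 and 2659.8, and the transporter Abcb10 from 26.4, 11.4 and 37.5 to 125, 124 and 175. Alas1, the housekeeping form of the first enzyme, went from 155, 152 and 188 to 462, 427 and 646 (log2 change 1.62 ± 0.20 (SE), adjusted p = 3.40e-06). The exception in the list was Cpox, on an uncertain probe set, with means from 1345 to 981 and an adjusted p of 0.452. Of 15 genes for iron, heme and iron-sulfur handling 4 were called higher and 1 lower. They were led by Bach1, a heme-sensing repressor, with 57.6, 51.3 and 5.2 at 0 h and 1249.9, 1053 and 787 at 30 h, and Hebp1, a heme-binding protein, with 143, 107 and 115 at 0 h and 2529.7, 1971 and 2181 at 30 h. The transferrin receptor Tfrc, on an uncertain probe set, had 1568, 930.4 and 1221 at 0 h and 2983, 1379.6 and 2715 at 30 h, which overlap, and was not called (adjusted p = 0.11).

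Membrane and skeleton genes of the red cell were called in both directions. Of 21 measured, 8 were called higher (38.1%) and 4 lower (19.0%). Over all genes the shares were 14.7% and 16.5%, so the share called lower was near the background. The largest fall of the list, Slc2a1 (-2.63), lost its call without 0 h replicate C. Mpp1, which links skeleton and membrane, went from 838, 881 and 948 to 5162, 5909 and 5481 (log2 change 2.52 ± 0.11 (SE), adjusted p = 3.52e-12), Tspan33, a tetraspanin of erythroblasts, from 345, 341 and 369.6 to 1542, 1732 and 1863, and the skeleton protein Add1 from 526, 494 and 469 to 2096, 2693 and 2623. These rises were read in all 3 arrays without overlap. Slc4a1, the band 3 anion exchanger, varied more, with 102, 55.8 and 42.8 at 0 h and 2705, 4037 and 4213 at 30 h. Basigin, Bsg, a partner of lactate carriers, fell from 1445, 1449 and 1895 to 616, 533 and 664 (log2 change -1.42 ± 0.30 (SE), adjusted p = 0.00105). Rhag, a subunit of the Rh complex read by a probe set that breaks a design rule, had 2009, 1854 and 2146 at 0 h and 1258, 1116 and 975 at 30 h. Of 28 red cell enzymes and antioxidants 9 were called higher and 8 lower. Carbonic anhydrases parted, with Car1 at 3629, 3499.7 and 3682 at 0 h and 85.6, 46.2 and 60.8 at 30 h and Car2 at 6832, 7002 and 6809.5 at 0 h and 12464, 11877 and 13182 at 30 h. The thioredoxin system parted too. The cytosolic Txn1 fell from 4530.3, 3861 and 3976 to 1409, 1494 and 1424 and its reductase Txnrd1 fell by 1.07 ± 0.29 (adjusted p = 0.00806), while the mitochondrial reductase Txnrd2 rose from 117, 127 and 132 to 459, 330.1 and 335. Glutathione reductase Gsr went from 534, 685 and 881 to 254, 200.3 and 229 and the peroxidase Gpx4 from 372, 313 and 275 to 819.5, 619 and 669, again in opposite directions. Among peroxiredoxins, which break down peroxides, Prdx3 rose by 0.88 ± 0.19 (adjusted p = 0.00165) and Prdx4 of the endoplasmic reticulum fell by 1.72 ± 0.25 (adjusted p = 2.37e-05).

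Calls among erythroid transcription factors were mostly higher and those among progenitor factors mostly lower. Of 27 erythroid factors and cofactors 12 were called higher and 1 lower, with a median of 0.82, and of 30 progenitor regulators 1 and 13, with a median of -0.34. Zfpm1 (Fog1), the cofactor that Gata-1 needs, had 1756, 1668 and 2254 at 0 h and 7459.9, 7280 and 7404 at 30 h (log2 change 1.82 ± 0.15 (SE), adjusted p = 1.17e-08). Mafk, a small Maf protein that pairs with the p45 subunit Nfe2, went from 142, 239 and 211 to 868, 1042 and 906, and Nfe2 itself from 785, 1065 and 977 to 2224, 2410 and 2124. Klf3, a repressor of the Klf family, rose from 186, 215 and 215 to 595, 713 and 581, Klf13 from 223, 182 and 194 to 485, 570 and 408, and Foxo3, which drives antioxidant genes, from 388, 415 and 480.4 to 1014, 954 and 999.6. In none of these genes did a 30 h array reach into the range of 0 h. The Gata1 probe set had 201, 157 and 269 at 0 h and 479.9, 605 and 418 at 30 h (log2 change 1.29 ± 0.21 (SE), adjusted p = 6.76e-05). Whether it reads the disrupted gene, the fusion or both is not given in the sources used here. Tal1, Lmo2, Ldb1 and Gfi1b, partners of Gata-1 in its complexes, were not called, with changes of 0.09 for Tal1, -0.34 for Lmo2, -0.37 for Ldb1 and 0.19 for Gfi1b, and adjusted p from 0.141 to 0.854. The single lower call of the list, Sox6, was lost without 0 h replicate A or C and without 30 h replicate A or C.

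On the progenitor side Gata2 had 2092, 1939.7 and 1696 at 0 h and 112, 85.6 and 137 at 30 h (log2 change -3.96 ± 0.23 (SE), adjusted p = 1.55e-10). Kit, the receptor for stem cell factor, had 377, 486 and 478 at 0 h and 47.6, 25.2 and 6.3 at 30 h, with replicate C the lowest at 30 h. Myc, a driver of growth, had 251, 252 and 248 at 0 h and 11.9, 12.9 and 4.3 at 30 h (log2 change -3.36 ± 0.27 (SE), adjusted p = 1.05e-08). All 30 h arrays of Myc lay below 15, near the floor of the chip. Nab2, a corepressor of Egr factors, had 603, 490 and 949 at 0 h and 62.8, 29.9 and 32.8 at 30 h, and the homeobox factor Hhex 249, 284 and 234 at 0 h and 86.6, 56.2 and 40.8 at 30 h. The Polycomb protein Bmi1 went from 1026, 729 and 885 to 436, 464 and 405 (log2 change -0.95 ± 0.23 (SE), adjusted p = 0.00371). Spi1 (PU.1), a myeloid factor that opposes Gata-1, was the 1 member called higher, with 147, 142 and 182 at 0 h and 295, 232 and 262 at 30 h (log2 change 0.81 ± 0.22 (SE), adjusted p = 0.00939). Stem cell markers such as Cd34, Meis1 (an uncertain probe set) and Hoxb4 were dim at both times, with changes of -0.02, -0.04 and 0.06 and no call.

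Cytokine signalling showed both directions, with 9 of 32 genes called higher (28.1%) and 5 lower (15.6%). The shares over all genes were 14.7% and 16.5%. The common beta chain Csf2rb went from 55.2, 18 and 23.1 to 6095, 4062 and 4783, and its mouse paralog Csf2rb2 from 79.6, 61.6 and 45.3 to 9162, 6913 and 7497. These genes are near-identical, so their probe sets may share signal. Among genes known to be induced through Stat5, the kinase gene Pim1 rose from 1766, 1252 and 1707 to 5198, 5115 and 4604 and the feedback inhibitor Cish from 362, 249 and 261 to 926, 727 and 726 (log2 change 1.44 ± 0.18 (SE), adjusted p = 2.90e-06). Socs2, also known as a Stat5 target, fell from 1033, 851 and 879.6 to 336, 500 and 356 (log2 change -1.17 ± 0.23 (SE), adjusted p = 0.000605). The kinase Jak1 rose by 1.19 ± 0.16 (adjusted p = 7.73e-06), whereas Igf1r, the receptor for insulin-like growth factor, fell from 296, 258 and 324 to 26.2, 84.5 and 48.7. Ptpn6 (Shp-1), a phosphatase that damps receptor signals, fell from 168, 184 and 233 to 25, 7.4 and 8.7, and Jak3 from 346, 329 and 417 to 165, 123 and 139, both on probe sets whose gene is uncertain.

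Most genes of DNA replication fell. Of 45 measured, 36 were called lower and 0 higher (1 at an unadjusted p below 0.05), with a median of -1.57. The licensing factor Cdt1 went from 1013, 1178 and 1229 to 59.6, 60 and 100.5 (log2 change -3.72 ± 0.19 (SE), adjusted p = 1.86e-11). Subunits of the Mcm helicase fell, Mcm4 from 999, 965 and 984 to 44.3, 85.2 and 54.2, Mcm7 from 1331, 1624 and 1432 to 214, 276 and 199.6 and Mcm2 from 1175, 1259 and 1240 to 188, 276 and 286. Mcm6 was the exception in the helicase, with a mean of 11.6 at both times, a level at which its probe set may not read the transcript. Subunits of the replicative polymerase delta also fell, Pold1 from 768, 894 and 890.2 to 123, 156 and 120.3, and Pold2, on an uncertain probe set, from 1044, 889 and 872 to 49.8, 50.9 and 67. The sliding clamp Pcna went from 1651, 1385 and 1206 to 113, 151 and 142, and the ribonucleotide reductase subunit Rrm2 from 1148, 1270 and 1283 to 35.3, 89.9 and 109 (log2 change -3.88 ± 0.33 (SE), adjusted p = 2.30e-08). Replicate A was the lowest 30 h array for Rrm2, Pcna, Mcm2 and Mcm5. Asf1b, a histone chaperone of replication, had 492, 378 and 411 at 0 h and 8.5, 12.2 and 34.8 at 30 h. The members not called included Pole3 (0.04) and Rnaseh2a (-0.03).

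Most mitotic genes fell too, with 39 of 48 called lower and 1 higher and a median of -1.55. Cdk1 went from 983, 926 and 933 to 13.5, 86.5 and 50.9, the checkpoint protein Mad2l1 from 686, 614 and 592 to 43.4, 101 and 52.9, and the condensin subunit Smc2 from 485, 508 and 526 to 27.4, 70.8 and 56. In all of these replicate A was the lowest 30 h array, and no array overlapped. The kinases Plk4 and Aurkb had changes of -2.97 ± 0.29 (adjusted p = 1.61e-07) and -2.27 ± 0.27 (adjusted p = 2.23e-06). Cyclin B2, Ccnb2, fell from 1928, 1579 and 1663 to 320.1, 651 and 744, and cyclin A2, Ccna2, from 822, 841 and 882 to 414, 470.5 and 586 (log2 change -0.77 ± 0.16 (SE), adjusted p = 0.000823). The 1 member called higher was Zwint, a kinetochore protein, with 1739, 1829 and 1638 at 0 h and 4186, 4498 and 4284 at 30 h, on a probe set whose gene is uncertain. Pttg1 and Nusap1, both on uncertain probe sets, and Cenpa were not called, with changes of 0.06, -0.07 and -0.24.

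The cyclins and inhibitors of G1 changed in a mixed way. Cyclin D2 (Ccnd2) fell from 837, 656 and 637 to 325, 212 and 252, cyclin D3 (Ccnd3) rose from 849.8, 957 and 968 to 2518, 2248 and 2085 and their partner Cdk4 fell from 2057, 2097 and 1934 to 830.5, 933 and 822. In each of these the arrays did not overlap. Rbl1 (p107), a pocket protein, fell from 162, 146 and 176 to 17.1, 36.5 and 43.4 (log2 change -1.88 ± 0.27 (SE), adjusted p = 2.16e-05), and the retinoblastoma gene Rb1 rose from 136, 102 and 167 to 201, 263 and 204 (log2 change 0.78 ± 0.20 (SE), adjusted p = 0.00592). In the whole list of 19 genes 2 were called higher and 7 lower. Of 21 cell cycle inhibitors and antiproliferative genes 10 were called higher and 0 lower (0 at an unadjusted p below 0.05), with a median of 0.81. Btg2 rose from 259, 259.6 and 356 to 3595, 3366 and 2680.4, the Cdk4 inhibitor Cdkn2c (p18) from 229.7, 201 and 259.7 to 888, 1071 and 987, and Cdkn1b (p27) from 7.8, 9.9 and 24.8 to 100.4, 78.4 and 90. Mxd1, which takes the place of Myc beside Max, went from 3.6, 4.1 and 3.4 to 176, 81.6 and 134 (log2 change 2.90 ± 0.32 (SE), adjusted p = 7.17e-07). Its 0 h signals lie at the floor. The stress-induced Gadd45a rose from 259, 206 and 216 to 1145, 1214 and 1064, and Gadd45g from 72.9, 68.3 and 136 to 631, 510.4 and 606. Cdkn1a (p21) had 1364, 1355 and 1170.5 at 0 h and 3801, 2997 and 2145 at 30 h, and its call (adjusted p = 0.0102) was lost without 30 h replicate A (0.0607).

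Most genes that build ribosomes fell, while most of those of the ribosome itself did not pass the test. Of 60 genes of ribosome biogenesis and RNA polymerase I 50 were called lower and 2 higher, with a median of -1.61. Fibrillarin, Fbl, the methyltransferase of small nucleolar particles, went from 2881, 2962 and 3327 to 631, 558 and 471 (log2 change -2.52 ± 0.14 (SE), adjusted p = 5.30e-11), its partner Nop56 from 1668, 1979 and 1879 to 272, 311 and 217, and the assembly factor Rrs1 from 744, 940.3 and 844 to 83.3, 91.3 and 64. The large subunit of RNA polymerase I, Polr1a, changed by -2.46 ± 0.23 (adjusted p = 1.07e-07). The nucleolar proteins also fell, nucleolin (Ncl) from 7234, 8810.1 and 9255 to 2623, 2489 and 2605 and nucleophosmin (Npm1) from 6377, 6232 and 6440.4 to 2281, 1722 and 1605. The 2 members called higher were Taf1c (0.75) and Rrn3 (0.60), initiation factors of RNA polymerase I, and the call of Rrn3 was lost under 7 of 15 settings. Of 34 cytosolic ribosomal proteins 6 were called lower and 0 higher (1 at an unadjusted p below 0.05), with a median of -0.12. The share called lower, 17.6%, is near the 16.5% of all genes. Several members not called, such as Rps14, Rps15, Rps20, Rpl32, Rpl35a and Fau, had means below 50 at both times. At this level a probe set may not read its transcript, so their missing calls do not show that these genes stayed level. The count of lower calls was 2 without quantile normalization, 2 with median scaling and 3 without 0 h replicate A or 30 h replicate B, and the median ran from -0.16 to 0.04 over the settings. Rpl22, with 209.9, 244 and 216 at 0 h and 78.2, 76.9 and 98.3 at 30 h, and Rpl13a, with 2052, 1757 and 1584 at 0 h and 1182, 1164 and 706 at 30 h, fell most.

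Lower calls outnumbered higher calls in translation and its supply lines. Of 53 translation factors 24 were called lower and 5 higher, the latter 2 to 4 when single arrays were left out (2 without 30 h replicate C). The release factor Gspt1 (eRF3) fell from 1064, 1304 and 1336 to 166, 174 and 254 (log2 change -2.55 ± 0.24 (SE), adjusted p = 7.80e-08), and the start-site factor Eif1a from 390.3, 415 and 320.1 to 88.7, 87.4 and 73.7. Eif2ak1 (HRI), the heme-regulated kinase that holds back translation when heme is short, rose from 233, 245 and 354 to 1368, 1744 and 1541 (log2 change 2.36 ± 0.20 (SE), adjusted p = 2.19e-08). Of 22 tRNA synthetase genes 12 were called lower (54.5%) and 3 higher (13.6%, against 14.7% of all genes). Eprs had 242, 239.7 and 277 at 0 h and 76, 76.7 and 65.9 at 30 h, while Aars had 481, 543 and 632 at 0 h and 1070.1, 1206 and 1174 at 30 h, in opposite directions. Of 34 genes for polyamines, nucleotides and one-carbon units 22 were called lower and 3 higher, with a median of -1.46. Gart, a trifunctional enzyme of purine synthesis, went from 1051, 1199 and 1209 to 97.7, 39.7 and 99.9, Psat1 of serine synthesis from 2615, 3116 and 3334 to 517, 539.8 and 492, and thymidine kinase Tk1 from 941, 944 and 795 to 117, 142 and 118. Sat1, which sends polyamines to breakdown, rose by 2.14 ± 0.37 (adjusted p = 0.000136), and Odc1, which starts their synthesis, fell by 0.97 ± 0.16 (adjusted p = 7.11e-05).

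**Figure D3:**
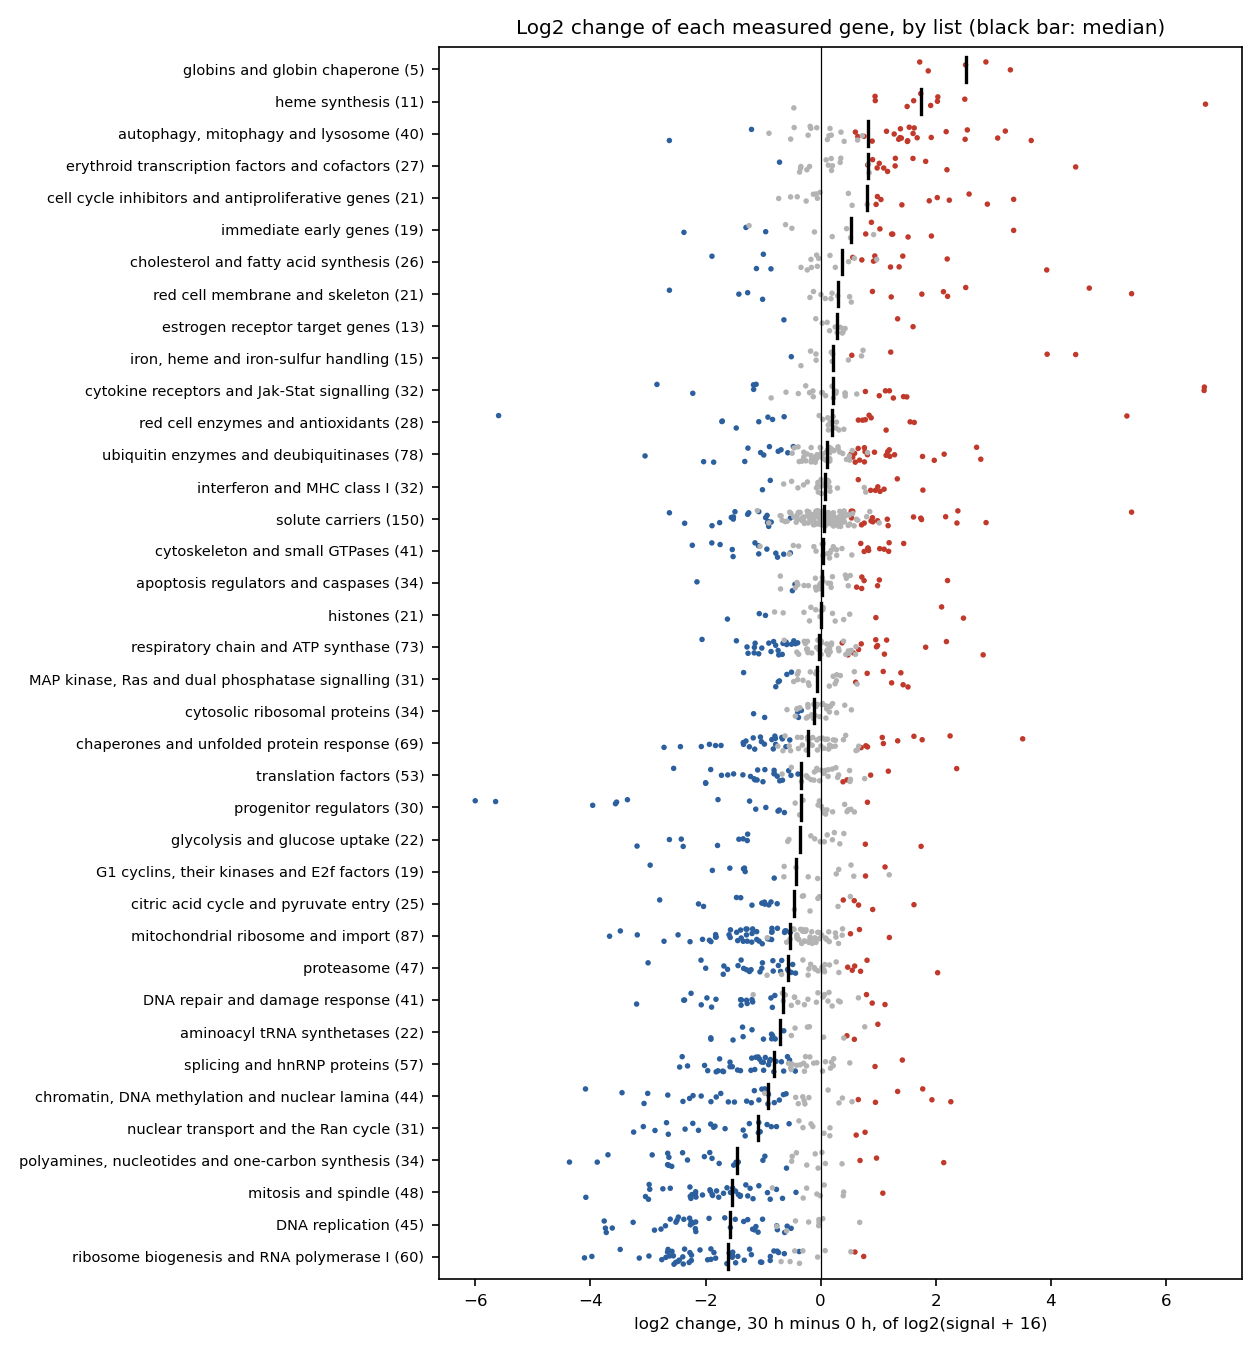
Log2 change from 0 h to 30 h (horizontal axis) of each measured gene in the lists for cell functions, with the number of genes in brackets, red for genes called higher, blue for genes called lower, grey for those not called and a black bar at the median. Medians run from -1.61 for ribosome biogenesis to 2.52 for globins, and the respiratory chain and the solute carriers hold genes of both colours around a median near 0.

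In the mitochondrial lists lower calls outnumbered higher calls. Of 87 genes of the mitochondrial ribosome and import machinery 44 were called lower and 3 higher, with a median of -0.53. The import factors Timm8a1 and Tomm40 fell from 451, 264 and 360.1 to 14.9, 4.6 and 22.5 and from 553, 669 and 607 to 87.8, 89.3 and 12.4, and the ribosomal protein Mrpl12 from 829, 1011 and 896 to 92.3, 73.7 and 43.4. Timm8b, the paralog of Timm8a1, rose from 368, 349 and 253 to 738, 754 and 706 (log2 change 1.19 ± 0.13 (SE), adjusted p = 8.30e-07). Of 25 genes of the citric acid cycle and pyruvate entry 12 were called lower and 5 higher. The enzyme that makes succinyl-CoA into succinate has a guanine-type subunit, Suclg2, which fell from 488, 772 and 819.7 to 144, 127 and 137, and an adenine-type subunit, Sucla2, on an uncertain probe set, which rose from 260, 262 and 279 to 491, 522 and 439. Isocitrate dehydrogenases parted in the same way, the mitochondrial Idh2 falling from 170.1, 169.8 and 271 to 23.1, 8.5 and 13.7 and the cytosolic Idh1 rising from 86.4, 156 and 112 to 389.9, 339.5 and 348. None of these pairs of groups overlapped. The respiratory chain held 13 genes called higher (17.8%) and 23 lower (31.5%) of 73. Over all genes the shares were 14.7% and 16.5%, so the share called higher was near the background. The median of this list was -0.03 and ran from -0.10 to 0.02 over the settings. Ndufa6 of complex I went from 386, 357 and 402 to 1918, 1967 and 1874 (log2 change 2.18 ± 0.13 (SE), adjusted p = 2.48e-10), Cyc1 of complex III from 3394, 3339 and 3118 to 1429.5, 1431 and 1329 (log2 change -1.46 ± 0.15 (SE), adjusted p = 2.66e-07), and the carrier protein Ndufab1 from 1574, 1404 and 1369.6 to 377, 397 and 258.

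Several glycolysis genes fell, with a large spread between replicates. Of 22 measured, 9 were called lower and 2 higher. Lactate dehydrogenase Ldha had 10409, 10384 and 9804 at 0 h and 769, 906 and 2532 at 30 h (log2 change -3.19 ± 0.46 (SE), adjusted p = 1.82e-05). Replicate C at 30 h was the highest of its group for Ldha, and also for the glucose carrier Slc2a1, which had 83.2, 190 and 507 at 0 h and 11.3, 9.1 and 46.8 at 30 h (log2 change -2.63 ± 0.79 (SE), adjusted p = 0.0176). Replicate C was the highest at 0 h too for Slc2a1, and for hexokinase Hk2, with 201, 380.1 and 559 at 0 h and 57.2, 43.1 and 49.6 at 30 h. Pgk1, which makes ATP in the second stage of the pathway, went from 5779, 4677 and 5642 to 1717, 742 and 1004 (log2 change -2.39 ± 0.34 (SE), adjusted p = 1.70e-05). The count of lower calls was 4 without 0 h replicate C and 5 without 30 h replicate B, and it was Slc2a1, Hk2, Pgam1, Pkm and Pfkl that lost their call without 0 h replicate C. Pdk1, the kinase that shuts pyruvate dehydrogenase, fell from 445, 468 and 574 to 122, 79.7 and 108. The muscle form of phosphofructokinase, Pfkm, rose from 185, 161 and 223 to 796, 494 and 661 (log2 change 1.74 ± 0.18 (SE), adjusted p = 3.14e-07), against the liver form Pfkl with 1265, 1126 and 2063 at 0 h and 393, 555 and 1006 at 30 h.

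**Figure D4:**
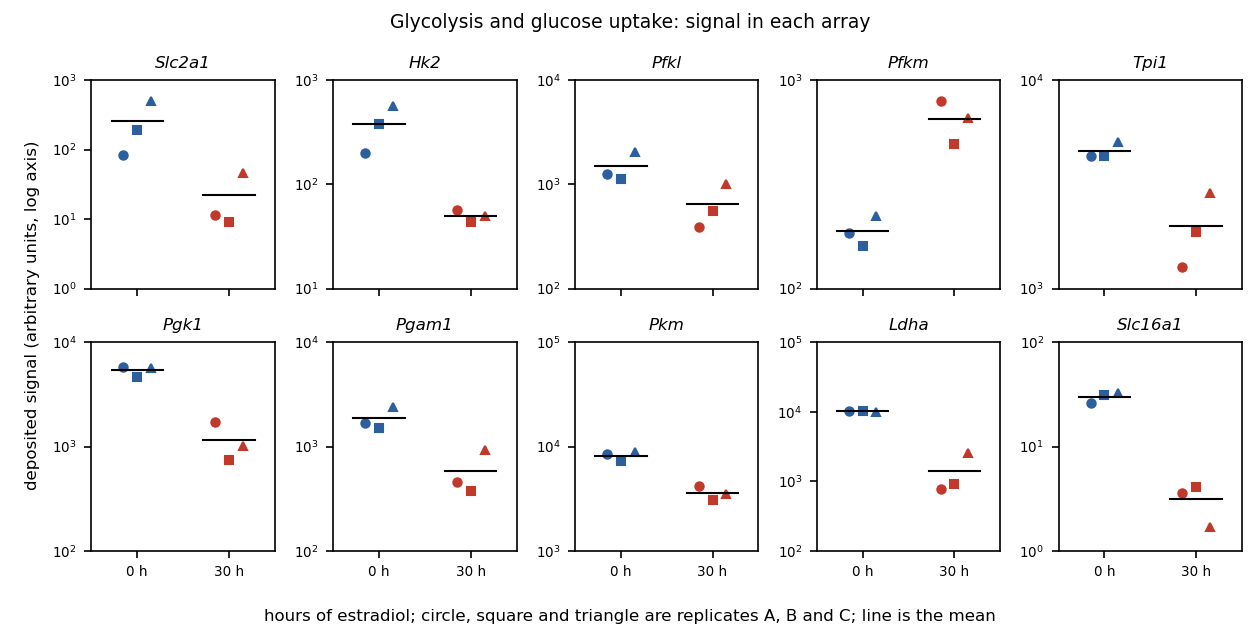
Deposited signal (vertical axes, log scale, arbitrary units) of 10 genes of glycolysis and of glucose and lactate transport in the 3 arrays of 0 h (blue) and of 30 h (red), with circles, squares and triangles for replicates A, B and C and a line at the mean. Slc2a1 spans 83.2 to 507 among the untreated arrays and Ldha 769 to 2532 among the 30 h arrays, while Pfkm is the gene of this set that is higher at 30 h.

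Many genes of self-digestion rose. Of 40 genes of autophagy, mitophagy and lysosomes 23 were called higher and 2 lower, with a median of 0.82. The lysosomal protease cathepsin B, Ctsb, went from 312, 311 and 419 to 4550.1, 5061 and 4589 (log2 change 3.66 ± 0.14 (SE), adjusted p = 8.01e-13), cathepsin A, Ctsa, from 97.6, 82.6 and 58 to 749.7, 852 and 702, and the cholesterol carrier Npc2 from 801, 673 and 846 to 8720.5, 6959.9 and 7340.5. The proteins that coat the growing autophagosome rose, Gabarap from 1283, 1018 and 1261 to 7362, 7484 and 7208, Map1lc3b from 448, 248 and 266 to 1977, 2144 and 1920.5, and Gabarapl2 by 1.36 ± 0.13 (adjusted p = 8.69e-08). Atg12, which is joined to Atg5 in the same process, had 159, 186 and 223 at 0 h and 624, 598 and 594 at 30 h, and the cargo receptor Sqstm1 (p62) 290.4, 251 and 359.9 at 0 h and 889, 797 and 709 at 30 h. Every 30 h array of these genes exceeded every 0 h array. Lamp1, a lysosome membrane protein, rose from 2703, 2914 and 3099 to 9735, 9330.5 and 10103. The genes called lower were cathepsin E, Ctse, with 1791, 1699.7 and 2046 at 0 h and 357, 290.2 and 236 at 30 h (log2 change -2.63 ± 0.19 (SE), adjusted p = 2.45e-09), and beta-glucuronidase, Gusb, with 176, 208 and 208 at 0 h and 70.1, 61.7 and 82.8 at 30 h. Ctsd, which also served as an estrogen target in the list of 13 such genes (2 called higher, 15.4% against 14.7% of all genes, and 1 lower, 7.69% against 16.5%), had 849, 1229.7 and 986 at 0 h and 3053, 3365 and 3778 at 30 h. The other gene of that list called higher was Igf1, a growth factor, with 204, 229.6 and 181 at 0 h and 446, 544 and 542 at 30 h.

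Ubiquitin enzymes were called in both directions. Of 78 ubiquitin enzymes and deubiquitinases 21 were called higher (26.9%) and 12 lower (15.4%), and 45 were not called, with a median of 0.11 against 0.05 over all genes. Ube2l6, a conjugating enzyme for ubiquitin and Isg15, went from 67.6, 87.4 and 88.4 to 520.4, 644 and 711 (log2 change 2.78 ± 0.20 (SE), adjusted p = 2.25e-09), and Uba7, the activating enzyme of Isg15, from 579, 411 and 445 to 1872, 2446 and 1873. Ube2h, a conjugating enzyme, had 29.3, 97.8 and 24.4 at 0 h and 361, 358 and 329.6 at 30 h, with replicate B the highest at 0 h. Ube2o, which tags ribosomal proteins in reticulocytes, rose from 234, 296 and 226 to 501, 555 and 637. Usp1, a deubiquitinase of DNA repair, fell from 432, 388 and 404 to 31.7, 42.6 and 31.3. Of 47 genes in the proteasome list 25 were called lower (53.2%) and 6 higher (12.8%, against 14.7% of all genes). The list includes Psme3ip1 (called lower) and Psmc3ip (not called), whose names mark interaction partners of proteasome proteins. The higher calls were 3 to 5 when single arrays were left out (3 without 30 h replicate B). The assembly chaperone Psmg1 fell from 600.4, 666 and 845 to 74.6, 66 and 70.8, the core subunit Psma6 from 3088, 2478 and 2317 to 919.9, 1349.5 and 954 and the lid subunit Psmd7 from 1414, 1500.3 and 1694 to 349.6, 451 and 338. The proteasome activator Psme4 (PA200) rose from 291, 258 and 277 to 1231, 1221 and 1159 (log2 change 2.03 ± 0.19 (SE), adjusted p = 7.40e-08). Of 69 chaperone and stress response genes 24 were called lower (34.8%) and 10 higher (14.5%). The share called higher is near the 14.7% of all genes. The mitochondrial Hsp70, Hspa9, fell from 2023, 3188 and 2783 to 399.9, 452 and 362, and the cytosolic Hsp90aa1 from 9174, 9509 and 9673 to 2819.6, 3434 and 3214. Ddit3 (Chop), a stress transcription factor, rose from 242, 265 and 387 to 1471, 1519.9 and 1576 and Dnaja1, an Hsp70 helper, from 429, 509.8 and 272 to 1190.4, 1766 and 1384.

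Lower calls also outnumbered higher calls in the lists for chromatin, nuclear transport, splicing and DNA repair. Of 44 genes for chromatin, DNA methylation and the lamina 27 were called lower and 6 higher, with a median of -0.92. The chromatin protein Hmgb3 went from 3750.4, 3508 and 3513 to 396, 503 and 490.3 (log2 change -3.00 ± 0.12 (SE), adjusted p = 1.13e-12), the maintenance DNA methyltransferase Dnmt1 from 981, 1458 and 1519.9 to 235, 337 and 308, and heterochromatin protein Cbx5 from 523, 257 and 329 to 32.2, 44.2 and 13.5. The histone deacetylases parted, in that Hdac1 fell by 0.97 ± 0.13 (adjusted p = 1.02e-05) and Hdac2 from 258, 284 and 317 to 70.5, 58.2 and 66.1, while Hdac5 rose from 204, 218 and 197 to 709, 827 and 955. Ezh1 rose by 1.77 ± 0.25 (adjusted p = 1.21e-05). At the lamina Lmnb1 fell by 2.28 ± 0.47 (adjusted p = 0.000935) while Lmna, on an uncertain probe set, rose from 1344, 1414 and 1421 to 7558, 7462 and 6762. Of 31 nuclear transport genes 22 were called lower and 2 higher, with Ran, the GTPase of the system, falling from 9217, 10379 and 8649.5 to 1961, 2607 and 2147 and the import receptor Ipo5 from 470.1, 667 and 764 to 51.9, 45.8 and 53.1. The 2 calls upward, Kpna6 and Kpna1, were both lost under more than 5 of 15 settings. Xpo7, an exportin counted with chromatin and read by an uncertain probe set, rose by 0.95 ± 0.19 (adjusted p = 0.000713). Of 57 splicing genes 35 were called lower and 2 higher, with Prpf8, the core of the spliceosome, at 1498, 1814 and 1912 at 0 h and 315, 306 and 307 at 30 h, and Prpf6, one of the exceptions, at 584, 720.1 and 896 at 0 h and 1870.4, 2358 and 2199 at 30 h. Of 41 DNA repair genes 18 were called lower and 3 higher. The checkpoint kinase Chek1 fell from 215, 182 and 222 to 25.8, 42 and 40.9, while Mdm2, which marks p53 for breakdown, rose from 154, 142 and 134 to 268, 249 and 261 (log2 change 0.90 ± 0.16 (SE), adjusted p = 0.000241). Of 21 histone genes 3 were called higher and 3 lower, 14.3% in each direction and so near the 14.7% and 16.5% of all genes, among them the linker histone H1f2, with 40.1, 60.6 and 68.6 at 0 h and 634, 290.3 and 258 at 30 h, and H2ax, with 786, 813 and 639 at 0 h and 216, 231 and 221 at 30 h.

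Sterol and lipid enzymes held more higher than lower calls, with 10 of 26 called higher and 4 lower. Fdft1 (squalene synthase) went from 313, 314 and 343 to 1705, 1902 and 1374 (log2 change 2.20 ± 0.19 (SE), adjusted p = 3.60e-08), and Fdps, one step before it, from 2797, 3082 and 3077 to 7201, 6218 and 5714. Fatty acid synthase, Fasn, fell from 472, 632 and 564 to 297, 218 and 246, and the chain-lengthening enzyme Elovl6 from 109, 60.2 and 47.1 to 9.2, 4.6 and 7.5. Of 150 solute carriers, a list taken by name alone, 19 were called higher and 18 lower, shares of 12.7% and 12% against 14.7% and 16.5% of all genes. The glycine carrier Slc6a9, which feeds heme synthesis, rose from 218, 265 and 321 to 858, 755 and 878, the copper carrier Slc31a1 from 304, 257 and 242 to 1406, 1679.6 and 1554, the zinc and iron carrier Slc39a8 from 231, 216 and 233 to 1269.5, 1276 and 1250.3, and the glutamine carrier Slc38a5 from 108, 135 and 112 to 1127, 972 and 845. All 12 values at 30 h in these carriers lay above all their 0 h values. The nucleoside carrier Slc29a1 fell from 584, 883 and 799.9 to 181, 141 and 233, and the mitochondrial ADP/ATP carrier Slc25a4 from 1074, 1009.9 and 1122 to 419.5, 268 and 250.

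Cytoskeleton, survival and surface genes were mixed. Of 41 cytoskeleton and small GTPase genes 10 were called higher (24.4%) and 13 lower (31.7%). The GTPases Rac1 and Rac2 parted, Rac1 falling from 2010.4, 2376 and 1707 to 755, 747 and 668 and the blood-specific Rac2 rising from 4837, 4678 and 5223 to 10767, 9201 and 8138. The actin gene Actg1 fell from 1302, 1515 and 1536 to 486, 389 and 294. Ezrin (Ezr) rose from 211, 236 and 312 to 492, 496 and 507 while its relative moesin (Msn) fell from 1061, 956 and 1069 to 544, 509.8 and 398. Of 34 apoptosis regulators 7 were called higher (20.6%) and 3 lower (8.82%), the former 4 without 0 h or 30 h replicate C. Bcl2l1 (Bcl-x), a survival gene of erythroblasts, went from 294, 275 and 246 to 1129.9, 1515 and 1469 (log2 change 2.20 ± 0.19 (SE), adjusted p = 2.47e-08), and the death promoter Bid from 191, 196 and 187 to 31.4, 40.6 and 20.3. Apaf1, the scaffold that activates Casp9, rose from 121, 90.5 and 74.5 to 192, 195 and 177 (log2 change 0.99 ± 0.17 (SE), adjusted p = 0.000139), and Bnip2, a Bcl2-binding protein, by 1.02 ± 0.17 (adjusted p = 9.26e-05). The other higher calls were the death promoters Bad (0.72), Diablo (0.71) and Casp9 (0.62) and the inhibitor Xiap (0.75, on an uncertain probe set). The other lower calls were Api5, an inhibitor of apoptosis (-0.45), and Bnip1 (-0.49). Each of these calls was lost under at least 1 of 15 settings. Diablo was dim, with means of 7.73 at 0 h and 24.2 at 30 h, and the arrays of Casp9 overlapped. Of 19 immediate early genes 8 were called higher and 3 lower, with Ier2 falling from 318, 551 and 602 to 92.9, 65.1 and 68.3 and Klf6 rising from 68.9, 76.5 and 49 to 295, 296 and 228. Of 31 genes of MAP kinase and Ras signalling 7 were called higher (22.6%) and 6 lower (19.4%), against 14.7% and 16.5% of all genes. The phosphatase Dusp1 rose from 74.1, 81.2 and 71.5 to 205, 189 and 162 and the Ras inhibitor Rasa1 fell from 204, 159 and 198 to 53, 71.4 and 58.3. Of 32 interferon and MHC class I genes 8 were called higher and 2 lower. B2m, the light chain of MHC class I, went from 1111, 725 and 929 to 2833, 2450.1 and 2479 (log2 change 1.33 ± 0.22 (SE), adjusted p = 8.25e-05), and Igtp, an interferon-induced GTPase, from 38, 27.2 and 23.7 to 80.4, 163 and 173.

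Among other large falls, Bzw2, a regulator of translation start, went from 1927, 1590.1 and 1609 to 95.3, 93.6 and 103 (log2 change -3.95 ± 0.26 (SE), adjusted p = 7.27e-10), and Pa2g4 (Ebp1), a growth-linked protein of the nucleolus, from 419, 386 and 477 to 12.6, 33.3 and 19.4. The arginine methyltransferase Prmt1 had 1133, 1209 and 1404 at 0 h and 89.3, 124 and 69.2 at 30 h. The 30 largest falls were likewise picked only from called genes whose arrays did not overlap. Map3k6, a stress kinase, went from 274, 188 and 439 to 12.1, 6.7 and 11, and Tspan4, a tetraspanin, from 318, 299.6 and 269 to 12.1, 5.8 and 6.4. The esterase gene Ces2g went from 317, 244 and 273 to 12.6, 5.8 and 7.2 and the aminopeptidase gene Npepl1 from 335, 388 and 456 to 24.6, 15.1 and 17.2. None of the 60 largest changes lost its call under any of 15 other settings.

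A mean signal above 1000 was reached by 388 genes at 0 h, by 431 at 30 h and by 224 at both times. The whole 95% interval of the change lay within 0.5 of 0 in 791 genes (9.59%). Eef1a1, the translation elongation factor, had 17319, 18902 and 16513 at 0 h and 20633, 16438 and 18636 at 30 h, with an interval of -0.47 to -0.03. Its mean rises on the deposited scale and falls slightly after normalization, so neither direction is read here. Tpt1, a growth-linked protein, had 11607, 11332 and 10820.3 at 0 h and 16934, 13367 and 13523 at 30 h (interval -0.04 to 0.43) and the ribosomal protein Rps3 11324, 11639.8 and 10885 at 0 h and 12549, 9972 and 10239 at 30 h (interval -0.45 to 0.01). At the other end, by a rule that uses the signals themselves, 144 genes called higher had 0 h signals below 50 in all 3 arrays, and 293 genes called lower had 30 h signals below 50 in all 3. The former included Spg21, on an uncertain probe set, with 37.1, 48.7 and 49.2 at 0 h and 297, 297 and 286 at 30 h, Ctsf, a lysosomal protease, with 6.4, 13.7 and 23.2 at 0 h and 282, 178 and 84.1 at 30 h, and Specc1 with 21.9, 11.3 and 6.9 at 0 h and 196, 202 and 128 at 30 h.

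Probe sets of the same gene gave a check on the readings. Of 2073 genes with more than 1 probe set, 266 had at least 2 called, and in 245 of them all calls had 1 direction while in 21 they opposed each other. In 565 genes exactly 1 probe set was called and in 1242 none. In Mcm5, Kpnb1, Mtm1 and Set a bright probe set stood beside a dim one, but this did not hold for every opposing gene. For Fignl1 the mean of the brighter probe set fell from 668 to 175, and that of the other rose from 194 to 275. For Ptch1 the means at 0 h and 30 h were 82 and 23.8 in the probe set that fell. In the Ptch1 probe set that rose they were 60.8 and 106. For Mcm5 the bright probe set had 2604, 3132 and 3444 at 0 h and 278, 581 and 564 at 30 h, while the dim one, which breaks a design rule, rose from 14.4, 11.9 and 27.2 to 75, 57.7 and 57.2. For Kpnb1, an import receptor, the bright one had 1246, 989.7 and 1084 at 0 h and 158, 174 and 146 at 30 h, and the dim one rose from 6.1, 16.6 and 6.8 to 66.3, 28.7 and 19.5. For Mtm1, a lipid phosphatase, the bright probe set is one that may read related transcripts and fell from 4046, 4361 and 3840 to 96.8, 57.1 and 46.2, whereas the other rose from 44, 33.9 and 43 to 86.5, 81.6 and 75.8, so the gene's direction is not settled. For Set, a histone-binding protein, both bright probe sets fell, one from 1108, 1080 and 1123 to 115, 116 and 93.5, and another, at 0.5 on every 0 h array, was called higher.

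Against 21 h, 2.24% of genes were called higher (185) and 3.9% lower (322), and of probe sets 1.87% and 3.12%. The means of Tmem150a at 0, 21 and 30 h were 36.3, 152 and 564, and those of Hbb-y 23.4, 47.8 and 350.5. H2-K2, an MHC class I gene on an uncertain probe set, had means of 367 at 0 h, 148.5 at 14 h and 908 at 30 h. Top2a, a topoisomerase of mitosis, had means of 380.5, 513 and 68.8 at 0, 21 and 30 h, and Kif20a, a motor of cell division on an uncertain probe set, had 609, 680 and 66.2. For Anln, which shapes the cleavage furrow, the means were 269, 216 and 27.3.

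**Figure D5:**
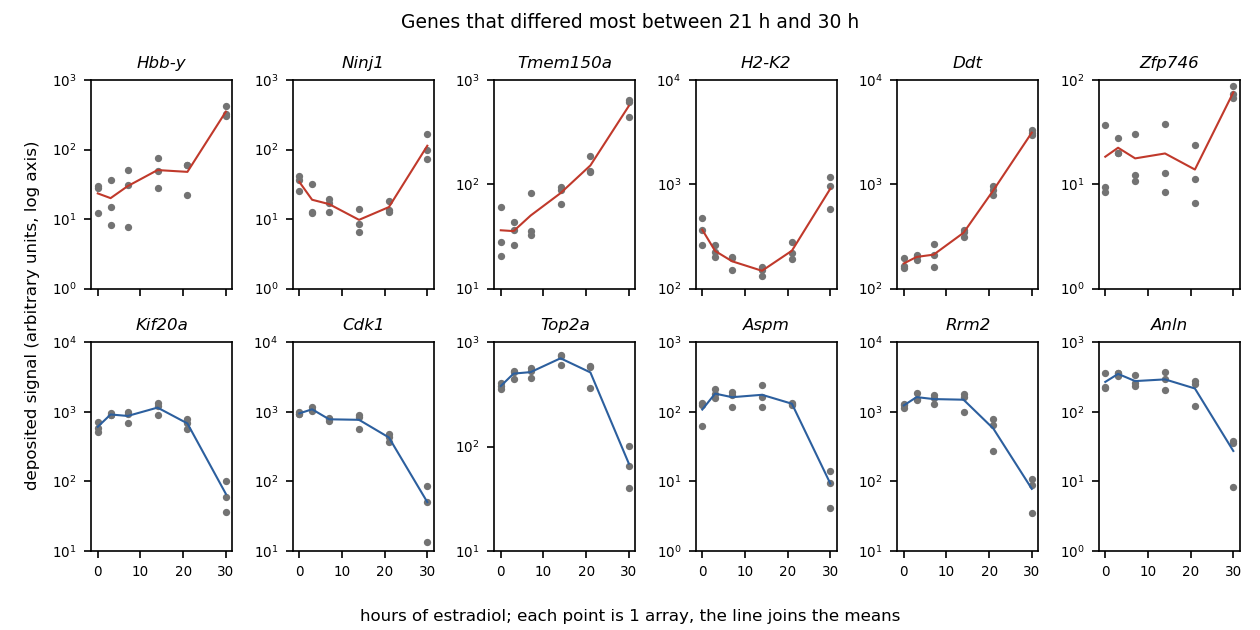
Deposited signal (vertical axes, log scale, arbitrary units) against hours of estradiol (horizontal axis), with a point per array and a line through the means. Shown are the 6 largest rises and 6 largest falls after 21 h, among genes called against both 0 h and 21 h. Kif20a, Top2a and Aspm lie above their 0 h mean from 3 h to 21 h and below it at 30 h, Cdk1 is below it from 7 h on, and Rrm2 and Anln are above it to 14 h and below it at 21 h.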

How the data were processed

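Total RNA of G1E-ER4 cells was measured on Affymetrix MG-U74Av2 arrays, 3 per time over 6 times. The deposited values are signal intensities on a linear scale, with the arrays at 1 common trimmed mean of 150.1 when 2% is cut from each end. The summary algorithm, the scaling and the detection calls are not given in the sources used here. Because the deposited intensities hold no counts, the 3 arrays per time limit the precision.

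Control probe sets (66 of 12488) were left out. The intensities were set to log2(signal + 16), quantile normalized and fitted in limma 3.58.1 (R 4.3.3) over all 18 arrays with an intensity trend and 12 residual degrees of freedom. Benjamini-Hochberg adjustment ran over all 12422 probe sets, and 0.05 was the threshold. The procedure was tested on simulated data. Of the probe sets 10833 name 1 gene, 396 several and 1193 none here, and those with 1 gave 8251 genes, each read by its brightest probe set. With 3 arrays against 3 an exact permutation test of a single gene could not go below 0.1.

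Genes were named by size of change (30 rises and 30 falls that were called and did not overlap between the times), by brightness, by disagreement of probe sets, by difference from 21 h, and as members of 44 lists of genes. The members and lists were chosen with earlier results of these data known. Promoter windows came from RefSeq (GRCm38.p6). The arrays at 0 h and 30 h held no identical pair.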

Additional observations from a re-analysis of the deposited data

Results flagged for a closer look

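The 12 genes here are the 6 largest rises and 6 largest falls after 21 h among genes called at 30 h against 0 h. Each also had an adjusted p below 0.05 in limma's test of 30 h against 21 h. Over all genes that test called 185 higher and 322 lower at 30 h. The rises on the log2 scale were 2.63 for Hbb-y (adjusted p = 0.000557), 2.06 for Ninj1, an adhesion protein (0.000196), and 1.77 for Tmem150a (0.000598). H2-K2 rose by 1.76 (6.75e-05), Ddt, a relative of the cytokine Mif, by 1.75 (8.77e-07) and the zinc finger gene Zfp746 by 1.71 (0.00517). The means of Ninj1 were 34.4 at 0 h, 14.9 at 21 h and 113 at 30 h. The changes of the falling genes were -3.13 for Kif20a, on an uncertain probe set (8.98e-08), -2.93 for Cdk1 (7.10e-06), -2.66 for Top2a (7.43e-07), -2.61 for Aspm, a spindle pole protein (9.47e-06), -2.59 for Rrm2 (6.89e-05) and -2.47 for Anln (0.000112). All of the falling genes act in replication or division.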

How the results depend on the processing

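The number of probe sets called was 3314 and ran from 3084 to 3430 under the 9 settings that kept all 6 arrays, and from 2816 (without 30 h replicate C) to 3055 when single arrays were left out. With a constant of 64 the counts of at least 2-fold were 517 higher (783 with 16) and 704 lower (1074), and a larger constant shrinks the change of dim genes by construction. The cytosolic ribosomal proteins called lower were 6, and 2 without quantile normalization, 2 with median scaling, 2 with only the 6 arrays of 0 h and 30 h, and 3 to 7 without single arrays. Translation factors called higher were 5, and 3 without the intensity trend and 2 to 4 without single arrays. Apoptosis regulators called higher were 7, and 4 with only the 6 arrays and 4 to 7 without single arrays. Glycolysis genes called lower were 9, and 4 to 9 without single arrays, and proteasome genes called higher were 6, and 3 to 5. The cause of these shifts was not tested, beyond the smaller number of arrays where arrays were left out. No called gene named here changed sign, but 8 list medians near 0 did, such as respiratory chain (-0.10 to 0.02), histones (-0.07 to 0.04), MAP kinase (-0.12 to 0.21), cytoskeleton (-0.10 to 0.12) and ribosomal proteins (-0.16 to 0.04). Of 808 called genes in the named sets 654 were called under all 15 settings and 154 were lost under at least 1.

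With the replicate letter as a replicate block 3351 probe sets were called, 1609 higher and 1742 lower. Arrays of the same letter did not deviate together (r from -0.04 to 0.03), so the letters were not taken to pair the samples. Signal limits the calls, with 3.50% called in the dimmest of 3 equal bins of probe sets.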
